A study of Mus musculus with 18 samples.

Results

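The genes described here mark leukocytes and macrophages, present antigen on major histocompatibility complex (MHC) molecules, or respond to interferon. They are 47 genes named by symbol, of which 46 were listed in the tables of 24054 genes: 9 of T and natural killer (NK) cell signalling, 3 of B cells, 1 carried by all leukocytes, 17 of macrophages and other myeloid cells, 5 of MHC class II, 7 of MHC class I and 4 of the interferon response. The remaining name, Adgre1, was absent under that symbol, and its older symbol Emr1 was listed. Emr1 is described but not counted. RNA was sequenced from the hypothalamus, pituitary and thyroid of male C57BL/Ntac mice, 3 months old and given no treatment. WT mice were compared with mice homozygous in every tissue for a knock-in allele of Thrb, the gene of thyroid hormone receptor beta, whose product has glutamine in place of lysine at a sumoylation site (THRB K146Q). Each tissue had 3 WT libraries (numbered 1, 2 and 43) and 3 K146Q libraries (60, 62 and 83), and values below are given in that order. The same numbers recur in each tissue, and the labels do not say whether they mark the same mouse. The comparison within each tissue asks which of these genes differ between the genotypes.

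MHC class I molecules display fragments of proteins made inside a cell and are found on most nucleated cells. A heavy chain pairs with beta-2 microglobulin. Proteasomes, the immunoproteasome among them, make the peptides, and the TAP transporter carries them to the molecule. MHC class II molecules are made mainly by macrophages, dendritic cells and B cells, and their alpha and beta chains are escorted by the invariant chain, the product of Cd74. NLRC5 and CIITA are the coactivators of class I and class II transcription. In the hypothalamus the resident macrophages are microglia, while the pituitary and thyroid hold tissue macrophages and dendritic cells among their endocrine cells.

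Values are normalized CPM as deposited, reads per gene scaled to library size jointly over the 18 libraries. The libraries held 14902330 to 21230050 reads, so 3 reads were worth 0.133 to 0.190 CPM. Thrb itself was read at 104, 97.7 and 106 CPM in the WT pituitary and 159, 142 and 184 CPM in the K146Q pituitary (log2 fold change 0.65 ± 0.10, limma adjusted p = 0.0029), and at 14.9, 16.3 and 15.6 against 7.19, 5.64 and 4.98 CPM in the thyroid (log2 fold change -1.33 ± 0.15, limma adjusted p = 0.00062). Gene counts do not show the altered codon, so Thrb does not check the labels. Each tissue carried its own defining genes, Tg in the thyroid, Gh and Prl in the pituitary and Snap25 and Avp in the hypothalamus. The 3 WT thyroid libraries each stood apart in markers of another tissue. Thyroid WT 2 was high in thymus markers: the 8 of them summed to 65.2 CPM there and to between 4.51 and 13.7 CPM in the other 5 thyroid libraries, and Rag1, which recombines antigen receptor genes in developing lymphocytes, was at 10.3 CPM there and at 0 in the others. Thyroid WT 1 had 35.9 CPM of the pituitary hormone gene Tshb against at most 5.69 CPM in the others. Thyroid WT 43 had 1937 CPM of 5 red cell markers against 220 to 424 CPM in the others. Where leaving out 1 of these libraries changes a member's call, the value without it is given beside that member.

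The stretches just upstream of a class I gene, its light chain gene and a pair of class II genes are shown because these genes moved together in the thyroid. Each is the 190 bases from 200 to 11 bases before the RefSeq start of the gene (GRCm38.p6), read 5′ to 3′ on the gene's strand. Each is free of annotated exons of its own gene, and exons of other genes were not checked. The positions are chr17:34000358-34000547 on the minus strand for H2-K1, chr2:122147487-122147676 on the plus strand for B2m, chr17:34287834-34288023 on the minus strand for H2-Aa and chr17:34305667-34305856 on the plus strand for H2-Eb1. Capitals mark the letters ATTGG (the inverted CCAAT box), TGACG (the core of a cAMP response element) and TTTCNNTT (the core of an interferon-stimulated response element), each searched on both strands.
H2-K1: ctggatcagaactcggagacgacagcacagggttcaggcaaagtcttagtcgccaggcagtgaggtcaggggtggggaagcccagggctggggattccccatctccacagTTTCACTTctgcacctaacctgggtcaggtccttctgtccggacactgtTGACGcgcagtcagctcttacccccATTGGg
B2m: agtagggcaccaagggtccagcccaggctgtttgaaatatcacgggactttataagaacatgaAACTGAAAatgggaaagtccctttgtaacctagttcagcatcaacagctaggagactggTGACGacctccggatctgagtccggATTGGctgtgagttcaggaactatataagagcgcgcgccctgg
H2-Aa: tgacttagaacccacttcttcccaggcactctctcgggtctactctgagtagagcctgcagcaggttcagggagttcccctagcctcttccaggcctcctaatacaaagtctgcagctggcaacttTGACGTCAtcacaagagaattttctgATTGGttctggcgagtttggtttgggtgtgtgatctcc
H2-Eb1: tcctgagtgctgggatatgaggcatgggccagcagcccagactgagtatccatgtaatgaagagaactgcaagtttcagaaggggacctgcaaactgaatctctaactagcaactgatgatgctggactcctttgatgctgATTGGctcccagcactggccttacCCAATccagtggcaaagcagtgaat
H2-K1 and B2m each held 1 match to each of the 3 motifs. H2-Aa held ATTGG and a palindrome in which TGACG overlaps its own reverse complement, and H2-Eb1 held ATTGG once on each strand. Of the 33 members with a RefSeq window, 11 held ATTGG, 12 held TGACG and 12 held TTTCNNTT, against 28.5%, 14.7% and 16.3% of all 32851 windows of the same length. TGACG was in 5 of the 6 class I windows, where those of Psmb9 and Tap1 overlap on opposite strands, and TTTCNNTT in 3 of the 4 interferon windows. The windows describe letters in the reference and were not a test of binding.

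The members differed between genotypes in the thyroid and the pituitary. In the thyroid, 31 of the 44 members tested were higher in K146Q, where 19.7% of all 15200 genes tested were higher. None of the 44 was lower, where 18.1% of all genes were. In the pituitary, 17 of 40 were higher against 6.36% of 15589 genes, and 0 of 40 were lower against 3.5%. In the hypothalamus 0 of 37 were called in either direction, against 0% of 15761 genes. A gene was tested if it reached 0.5 CPM in at least 3 of the tissue's 6 libraries and was called at a Benjamini-Hochberg adjusted p under 0.05 in limma, fitted to log2(CPM + 0.5) over all genes. The median log2 fold change (K146Q minus WT) of the members tested was 1.18 in the thyroid, 0.59 in the pituitary and 0.09 in the hypothalamus, and that of all genes tested lay between -0.025 and -0.001. No member passed the filter in the thyroid through K146Q libraries alone, and without any filter 31 of 46 were called there. Without WT 2, 38 of 44 were called, 4 of which then passed the filter through K146Q libraries alone. At an unadjusted p under 0.05, limma had 35 thyroid members higher and 2 lower and 24 pituitary members higher and 2 lower, and edgeR and DESeq2 called 0 members lower in either tissue. Where 2 values stand in parentheses after a gene, they are its log2 fold change and its limma adjusted p. In whole tissue, a change in the number of cells of a type and a change in RNA per cell cannot be told apart.

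**Figure D1:**
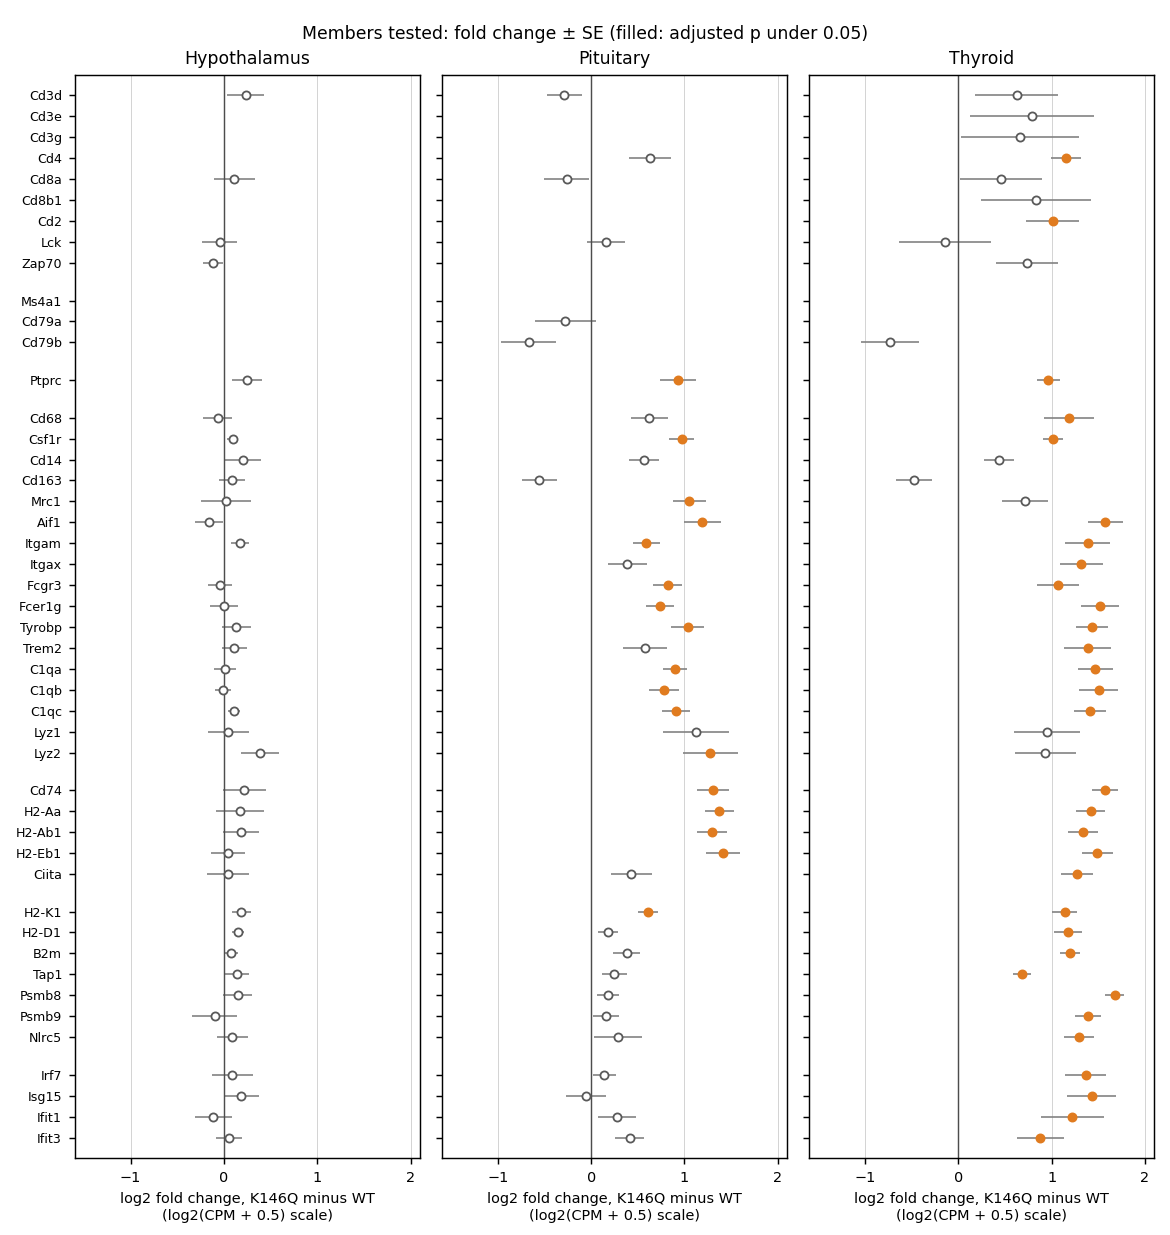
Log2 fold change (K146Q minus WT, horizontal axis) of each member in the hypothalamus, pituitary and thyroid, grouped by role, with bars of 1 standard error and filled points for an adjusted p under 0.05. The 5 class II and 7 class I members are all filled in the thyroid, 4 and 1 of them in the pituitary and none in the hypothalamus.

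In the thyroid, every MHC class II member rose in K146Q, with a median log2 fold change of 1.42 over 5 of 5. Cd74, the invariant chain, was at 471, 386 and 404 CPM in WT 1, 2 and 43 and at 1430.1, 1186 and 1132 CPM in K146Q 60, 62 and 83. The lowest K146Q library was above the highest WT library, and the means were 420.4 ± 44.9 and 1249 ± 159 CPM (SD, n = 3; log2 fold change 1.57 ± 0.14 SE, limma adjusted p = 0.00022). H2-Aa, the alpha chain of the I-A molecule, was at 126, 97.6 and 114 CPM in WT and 376, 273 and 261 CPM in K146Q. H2-Ab1, its beta chain, was at 135, 107 and 130.1 against 389, 290.5 and 269 CPM. H2-Eb1, the I-E beta chain, was at 115, 85.6 and 108 against 360.4, 268 and 246 CPM. These chain genes kept the same order of libraries within K146Q, with K146Q 60 highest and K146Q 83 lowest, and no K146Q library reached down to a WT value. Their log2 fold changes were 1.42, 1.34 and 1.49. Ciita, the class II coactivator, was at 6.0, 5.13 and 4.87 CPM in WT and 16.0, 10.9 and 14.2 CPM in K146Q, also without overlap (log2 fold change 1.27 ± 0.17, limma adjusted p = 0.0013). Among 10 further class II genes 6 were higher and 0 lower in limma, edgeR and DESeq2. The largest were H2-Oa (2.44), whose product is part of the inhibitor of peptide loading, H2-DMb1 (1.36) and H2-DMb2 (1.19), beta chains of the loading factor, and the lysosomal protease Lgmn (1.09). The genes of the RFX complex that binds class II promoters, Rfx5, Rfxap and Rfxank, were not called, with log2 fold changes of -0.02, 0.26 and 0.15.

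All 7 class I members rose in the thyroid as well (median log2 fold change 1.2). The immunoproteasome subunit Psmb8 had the largest change, at 22.8, 21 and 21.2 CPM in WT and 77.4, 72.3 and 61.5 CPM in K146Q. The means were 21.7 ± 0.99 and 70.4 ± 8.13 CPM (SD, n = 3; log2 fold change 1.67 ± 0.10, limma adjusted p = 6.7e-05), and every K146Q library was above every WT library. Its partner subunit Psmb9 was at 8.53, 9.68 and 8.42 against 28.0, 24.4 and 20.3 CPM (log2 fold change 1.39). B2m, the light chain, was at 323, 307 and 311 CPM in WT and 807, 722 and 638 CPM in K146Q (log2 fold change 1.2 ± 0.11, limma adjusted p = 0.00027). The heavy chains H2-K1 and H2-D1 moved by like amounts. H2-K1 was at 605, 563 and 639 against 1438, 1412 and 1143 CPM, and every K146Q library was above WT. H2-D1 was at 627, 546 and 661 against 1493, 1473 and 1175 CPM, again without overlap. Their log2 fold changes were 1.14 ± 0.14 and 1.17 ± 0.15. Tap1, a subunit of the peptide transporter, had the smallest change of the class, from 28.3 ± 0.448 to 45.9 ± 4.22 CPM (0.68). The class I coactivator Nlrc5 was at 5.49, 5.95 and 4.09 CPM in WT and 12.9, 14.4 and 12.5 CPM in K146Q (1.29). Of 14 further class I genes tested 11 were higher and 0 lower in limma, edgeR and DESeq2, led by the nonclassical heavy chain H2-Q7 (1.88), the immunoproteasome subunit Psmb10 (1.36), the loading factor tapasin, Tapbp (1.35), and the proteasome activator subunit Psme1 (1.02). The 3 not called were the general chaperones Calr (0.40), Canx (-0.18) and Pdia3 (0.27). Reads of near-identical heavy chain genes such as H2-K1, H2-D1 and H2-Q7 can be assigned to one another, so the split between them is uncertain.

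The 4 interferon response members rose in the thyroid (median log2 fold change 1.29). Irf7, a transcription factor of the type I interferon response, was at 7.96, 10.9 and 9.98 CPM in WT and 24.6, 34.6 and 19.0 CPM in K146Q (1.36 ± 0.22, limma adjusted p = 0.0028). Isg15, a ubiquitin-like modifier, was at 2.78, 2.72 and 3.01 against 7.19, 13.3 and 6.33 CPM (1.43). In both genes, and in Ifit1 and Ifit3, K146Q 62 was the highest K146Q library, unlike in the class II genes, where K146Q 60 was. Ifit1, an RNA-binding antiviral protein, was at 2.40, 5.06 and 5.95 against 9.37, 15 and 8.09 CPM (1.22, limma adjusted p = 0.026), and the related Ifit3 at 8.02, 11.6 and 9.62 against 18.4, 25.7 and 12.6 CPM (0.88, limma adjusted p = 0.029). These last calls rested on single libraries: Ifit1 had an adjusted p of 0.053 without K146Q 60 and 0.093 without K146Q 62, and Ifit3 had 0.078 without WT 1, 0.060 without WT 43, 0.076 without K146Q 60 and 0.088 without K146Q 62. Of 18 further interferon response genes 15 were higher and 1 lower. The largest were Ifi44 (1.91), the nucleic acid sensor Zbp1 (1.72), the GTPase Gbp2 (1.57) and the transcription factor Irf1 (1.5). The single gene that fell, Rsad2, an antiviral enzyme of the same response, had a log2 fold change of -0.85 and is named after its value was seen.

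**Figure D2:**
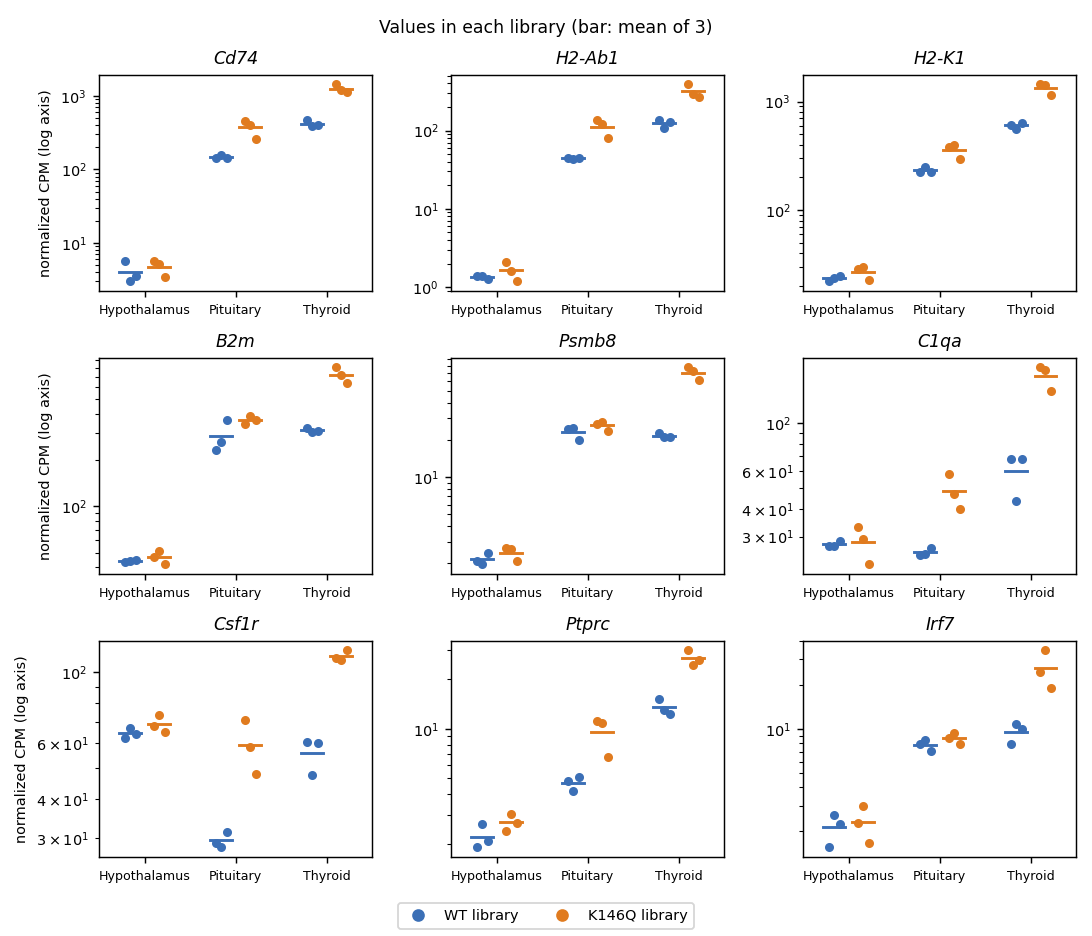
CPM (log axis) of 9 members in each of the 18 libraries, by tissue and genotype, each point 1 library. Cd74 separates the genotypes in the pituitary and thyroid, Psmb8 and Irf7 in the thyroid alone, and the hypothalamus groups overlap in all 9 panels.

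Macrophage and myeloid members rose in 12 of 17 in the thyroid (median log2 fold change 1.32). The 3 chains of complement C1q, made mainly by macrophages, moved together. C1qa was at 68.1, 43.8 and 68.4 CPM in WT and 179, 175 and 139 CPM in K146Q. C1qb was at 59.0, 34.9 and 57.0 against 157, 148 and 117 CPM, and C1qc at 62.1, 41.3 and 62.7 against 153, 159 and 125 CPM. WT 2 was the lowest library for each, and no K146Q library overlapped WT. Their log2 fold changes were 1.47 ± 0.19, 1.5 ± 0.21 and 1.41 ± 0.17. Csf1r, the receptor through which macrophages are kept alive, was at 60.4, 47.5 and 59.8 against 111, 109 and 117 CPM (1.01 ± 0.11, limma adjusted p = 0.00044). Aif1, the actin-binding protein IBA1, had the largest change of the class, from 2.15, 2.59 and 2.71 to 10.3, 8.17 and 6.86 CPM (1.57). The receptor and adaptor genes moved by similar amounts: Fcer1g (1.52) and Tyrobp (1.43), signalling adaptors, Trem2 (1.39), a lipid-sensing receptor, Fcgr3 (1.07), an antibody receptor, and the integrin chains Itgam (1.38) and Itgax (1.32). Cd68, a lysosomal glycoprotein of macrophages, was at 24.6, 12 and 24.1 against 48.0, 47.9 and 38.0 CPM (1.19). Emr1, the F4/80 antigen, was at 19.0, 11.3 and 15.1 against 30.8, 38.1 and 35.0 CPM (1.19, limma adjusted p = 0.0023).

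The scavenger and lysozyme genes were not called with all libraries in the main fit. Cd163, the receptor for haemoglobin bound to haptoglobin, was at 14.7, 14.4 and 18.9 CPM in WT and 14.6, 9.11 and 10.7 CPM in K146Q, with a log2 fold change of -0.48 (limma adjusted p = 0.086), the only myeloid member with a value below 0. It was called lower with library totals that leave out the 10 highest genes (-0.57, limma adjusted p = 0.043) and without K146Q 60 (-0.66, 0.030). Mrc1, the mannose receptor, was at 30.5, 15.4 and 29.3 against 39.4, 35.8 and 44.4 CPM (0.71, limma adjusted p = 0.054). Lyz2, macrophage lysozyme, was at 245, 96.7 and 207 against 396, 289 and 299 CPM (0.93, limma adjusted p = 0.056), and its near-identical neighbour Lyz1, with which it can share reads, had 0.95 (0.069). For Mrc1, Lyz1 and Lyz2 the K146Q libraries were all above WT, but WT 2 was far below the other WT libraries. Without WT 2 the fold change of Mrc1 was 0.40 and that of Lyz2 0.53, both then called (limma adjusted p = 0.037 and 0.043). Mrc1 was also called without WT 1 (0.88, 0.035), without WT 43 (0.86, 0.044) and in DESeq2 (0.68, 0.016), Lyz2 without WT 1 (1.2, 0.024) and Lyz1 without WT 43 (1.19, 0.042). Cd14, the coreceptor for bacterial lipopolysaccharide, had 0.44 (0.064). Of 19 further macrophage genes tested 11 were higher and 1 lower. The largest were the antibody receptors Fcgr1 (1.98) and Fcgr4 (1.61), the protease Ctss (1.54), which cleaves the invariant chain, and the monocyte chemokine receptor Ccr2 (1.34). The single gene that fell was Mertk (-0.53), a receptor for the uptake of dying cells, named after its value was seen. Among 10 dendritic cell genes Batf3 rose (1.12), while Siglech (-1.03) and Zbtb46 (-0.67) fell. Neither fall was called without WT 1 (limma adjusted p = 0.054 and 0.059) or K146Q 62 (0.082 and 0.05004), and that of Siglech was also lost without WT 2 (0.052), WT 43 (0.062) or K146Q 83 (0.068).

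Ptprc, the CD45 phosphatase carried by all leukocytes, rose in the thyroid from 15.2, 13.0 and 12.2 CPM to 29.8, 24.3 and 26.1 CPM with no overlap (log2 fold change 0.96 ± 0.13, limma adjusted p = 0.0011). T and NK members were called in 2 of 9. Cd4, a coreceptor of helper T cells that macrophages and dendritic cells also express, was at 2.27, 2.47 and 1.86 CPM in WT and 5.40, 5.47 and 5.57 CPM in K146Q (1.15 ± 0.16, limma adjusted p = 0.0013). Cd2, an adhesion molecule of T and NK cells, was at 0.632, 0.316 and 0.782 against 2.43, 1.23 and 1.41 CPM (1.01, 0.026), and that call was lost without WT 1 (adjusted p 0.051), WT 2 (0.071), K146Q 60 (0.078) or K146Q 83 (0.051). The signalling chains of the T cell receptor were high in WT 2, the library high in thymus markers. Cd3e was at 0.379, 2.97 and 0 CPM in WT and 2.53, 1.18 and 1.06 CPM in K146Q, and Cd3g at 0.568, 3.99 and 0.301 against 3.07, 2.23 and 1.06 CPM. In both, WT 2 was the highest of all 6 libraries and the other WT libraries were below every K146Q library. Their log2 fold changes were 0.79 (0.39) and 0.66 (0.45) with all libraries, and 1.59 (0.023) and 1.42 (0.029) without WT 2. In that fit Cd3d (1.17, limma adjusted p = 0.014), Cd8a (0.96, 0.049), Cd8b1 (1.53, 0.021) and the kinase Zap70 (1.04, 0.039) also had an adjusted p under 0.05 and Cd2 did not, so that 7 of 9 were called. Of these 7, Cd3d, Cd3e, Cd8b1 and Zap70 were under 0.5 CPM in both remaining WT libraries and entered that fit through the 3 K146Q libraries alone, where they are high, so their calls there are no support. The kinase Lck changed sign, from -0.14 with all libraries to 0.45 without WT 2 and 0.02 without K146Q 83 (adjusted p 0.84, 0.26 and 0.98). These members had few reads in WT 1 and WT 43: Cd3e was at 0 in WT 43, and Cd3d, Cd3g and Cd8b1 were each at 0.568 CPM or less in WT 1 and WT 43. The 8 thymus markers summed to 65.2 CPM in WT 2 and were also at 9.5 to 13.7 CPM in K146Q against 4.51 and 4.93 CPM in WT 43 and WT 1, with Rag1 at 0 in all 5 of these libraries and Prss16, a protease of thymic epithelium, at 6.10, 5.64 and 4.28 CPM in K146Q. None of the 5 thymus markers tested was called in limma or edgeR, and DESeq2 called 2 lower. Without WT 2, Prss16 (1.39, limma adjusted p = 0.0050) and Foxn1 (1.74, 0.0060), a transcription factor of thymic epithelium, were called higher. Their part in the result was not tested.

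Of the 3 B cell members, 1 passed the filter in the thyroid. Cd79b, a signalling chain of the B cell receptor, was at 3.28, 6.26 and 2.53 CPM in WT and 2.48, 2.23 and 1.58 CPM in K146Q (-0.73, limma adjusted p = 0.10), and was called lower without WT 43 (-0.98, limma adjusted p = 0.046). Its highest value was in WT 2, and without that library the log2 fold change was -0.40. Its partner Cd79a and the CD20 gene Ms4a1 stayed below the filter, at up to 0.496 and 0.189 CPM. Of 8 further T cell genes tested, 0 were called in limma and edgeR and 1 was lower in DESeq2, with 2 at an unadjusted p under 0.05. A gene among those 8 passed the filter through K146Q libraries alone. Without WT 2, 1 of 7 was higher, the adaptor Lat (1.33, limma adjusted p = 0.014), and without WT 1 the transcription factor Tcf7 was lower (-1.19, 0.014). In the fit without WT 2, Lat passed the filter through K146Q libraries alone. Both genes are named after their values were seen. Of 4 NK cell genes 1 was called higher, the granzyme Gzmb, and of 5 B and plasma cell genes 3 were, Spib (3.83), Cd22 (0.84) and the kinase Blk. Gzmb and Blk passed the filter through K146Q libraries alone and had to differ. Cd22 was lost without WT 43 (limma adjusted p = 0.051), K146Q 60 (0.0503) and K146Q 62 (0.081).

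**Figure D3:**
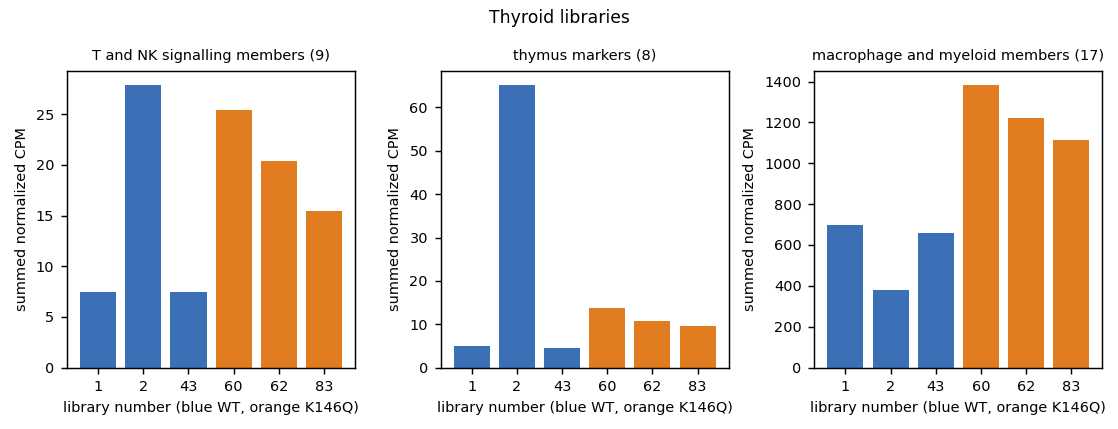
Summed CPM (vertical axis) of the 9 T and NK members, the 8 thymus markers and the 17 macrophage and myeloid members in each of the 6 thyroid libraries. The T and NK sum of WT 2 (27.9 CPM) is above every K146Q library (15.5 to 25.4 CPM) and its thymus sum is 65.2 CPM, while its macrophage sum (378 CPM) is the lowest of the 6.

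Markers of other tissues moved with genotype in the thyroid dissections. All 4 adipose markers fell, and their sum was 359.9 to 405 CPM in WT and 54.1 to 108 CPM in K146Q. The 3 parathyroid markers, Pth, Gcm2 and Casr, fell, with sums of 3454 to 6409 CPM in WT and 523 to 1569 CPM in K146Q. The 4 endothelial markers summed to 539 to 639 CPM in WT and 694 to 776 CPM in K146Q, of which Cdh5 (0.71) and Pecam1 (0.27) rose. Thyroid follicular markers summed to 298992 to 360966 CPM in WT and 89814 to 137150.0 CPM in K146Q, nearly all of it Tg. Of the 6, Tshr (1.06), Pax8 (0.38) and Nkx2-1 (0.38) rose and Foxe1 (-0.53) fell. Skeletal muscle markers (238 to 5053 CPM in WT and 526 to 2969 CPM in K146Q) and red cell markers (353 to 1937 CPM in WT and 219.6 to 424 CPM in K146Q) overlapped between genotypes, with 0 of 4 and 0 of 5 called in limma, edgeR and DESeq2 and 0 and 1 at an unadjusted p under 0.05. Without WT 2 the red cell gene Hba-a2 was called lower (-2.47, limma adjusted p = 0.037), and without WT 1 the muscle gene Myh4 (-2.26, 0.044). The call of Pecam1 was lost without any 1 of the 6 libraries (0.060 to 0.073), and those of Pax8 and Nkx2-1 without WT 1 (0.068 and 0.060), WT 43 (0.062 and 0.077) or K146Q 62 (0.092 and 0.11). Nkx2-1 was also lost without K146Q 60 (0.057). With quantile normalization Pax8 (0.13, limma adjusted p = 0.39), Nkx2-1 (0.13, 0.37) and Pecam1 (0.19, 0.063) were not called. With totals without the 10 highest genes Pax8 (0.29, limma adjusted p = 0.059), Nkx2-1 (0.28, 0.067) and Pecam1 (0.17, 0.096) were not called either. The part of these markers of other tissues in the result was not tested.

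In the pituitary, 4 of 5 class II members and 11 of 17 macrophage and myeloid members rose in K146Q, and 1 of 7 class I and 0 of 4 interferon members were called. The median log2 fold change of the class II members was 1.31. Cd74 was at 143, 155 and 142 CPM in WT and 453, 407 and 260.2 CPM in K146Q, with means of 147 ± 6.96 and 374 ± 101 CPM (SD, n = 3; log2 fold change 1.31 ± 0.17, limma adjusted p = 0.0015). H2-Aa was at 49.3, 47.7 and 45.7 against 148, 142 and 90.8 CPM (1.37), and H2-Eb1 at 43.6, 45.1 and 39.9 against 144, 131 and 80.0 CPM (1.41). The WT libraries lay close together and K146Q 83 was nearest to them in each gene, without overlap. H2-Ab1 had a log2 fold change of 1.30 ± 0.16 (limma adjusted p = 0.0013). Ciita was at 4.09, 3.37 and 2.34 CPM in WT and 4.80, 5.46 and 3.41 CPM in K146Q, which overlapped (0.43, 0.26). Of 9 further class II genes 1 was higher, the lysosomal protease Lgmn (0.34), with 5 higher and 2 lower at an unadjusted p under 0.05. Lgmn was lost without K146Q 60 (limma adjusted p = 0.16), K146Q 62 (0.096) and WT 2 (0.075), and 0 of 7 were called without K146Q 60. The count was 2 in edgeR and 3 in DESeq2. The gene that edgeR added, H2-Oa, passed the filter through K146Q libraries alone and had to differ, so its call is no support. Another of the 9 passed the filter in the same way. After rescaling to totals without the 10 highest genes, 1 was higher and 1 lower, the transcription factor subunit Rfxap (-0.39, limma adjusted p = 0.035).

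Of the 7 class I members in the pituitary, H2-K1 alone rose, from 224, 249 and 225 CPM to 383, 394 and 294 CPM (0.61 ± 0.11, limma adjusted p = 0.0083). H2-D1 was at 238, 269 and 246 against 294, 322 and 242 CPM (0.18, limma adjusted p = 0.32). Psmb8 was at 24.7, 25.1 and 19.9 against 27.1, 28.0 and 23.8 CPM (0.18, 0.37). The genotypes overlapped in both. B2m was at 233, 263 and 364 CPM in WT, where WT 43 was well above the others, and 345, 387 and 368 CPM in K146Q (0.38, 0.13). Without WT 43 it was called (0.56, limma adjusted p = 0.0052). Psmb9, Tap1 and Nlrc5 had log2 fold changes of 0.16, 0.25 and 0.29 with limma adjusted p of at least 0.278. Of 14 further class I genes tested 4 were higher: the endoplasmic reticulum chaperones Calr (0.78) and Pdia3 (0.58), which assist many secreted proteins, the heavy chain H2-T23 (0.53) and Tapbp (0.33). Without WT 43, K146Q 60 or K146Q 62, H2-T23 (limma adjusted p = 0.079, 0.13 and 0.11) and Tapbp (0.053, 0.088 and 0.10) were lost. H2-T23 was also lost without WT 1 (0.085). The interferon members Irf7, Isg15, Ifit1 and Ifit3 had log2 fold changes of 0.14, -0.06, 0.28 and 0.41, 0 of 4 called in limma and 1 at an unadjusted p under 0.05, and Isg15 was at 0.06 without WT 2 and 0.10 without K146Q 60. Ifit3 was called without K146Q 83 (0.58, limma adjusted p = 0.028). Of 18 further interferon genes 1 was higher, the RNA sensor Ifih1 (0.35, limma adjusted p = 0.047). It was lost without WT 2 (limma adjusted p = 0.11), WT 43 (0.071), K146Q 60 (0.11), K146Q 62 (0.18) or K146Q 83 (0.10). No filter (0.059), no variance trend (0.087) and totals without the 10 highest genes (0.073) also lost it. Zbp1 (-0.50, limma adjusted p = 0.053) was called lower in DESeq2 (0.045), with quantile normalization (limma, 0.041) and with those totals (0.038).

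Macrophage and myeloid members rose in 11 of 17 in the pituitary (median log2 fold change 0.82). Csf1r was at 29.1, 28.1 and 31.5 CPM in WT and 71.0, 58.3 and 47.9 CPM in K146Q (0.97 ± 0.13, limma adjusted p = 0.0018), and C1qa at 24.6, 25.1 and 26.7 against 58.2, 47.3 and 40.1 CPM (0.90 ± 0.13, 0.0022). As with class II, K146Q 60 was highest and K146Q 83 lowest, and all K146Q libraries were above WT. Aif1 (1.19), Mrc1 (1.05), Tyrobp (1.03) and C1qc (0.91) also rose, with limma adjusted p of at most 0.0061, as did Lyz2 (1.28), C1qb (0.78), Fcgr3 (0.82), Fcer1g (0.74) and Itgam (0.59). Not called were Cd68 (0.62), Cd14 (0.57), Trem2 (0.58), Itgax (0.39) and Lyz1 (1.12). Without K146Q 83, Cd68 (0.80, limma adjusted p = 0.038), Trem2 (0.84, 0.031) and Lyz1 (1.48, 0.026) were called. Lyz1 was also called without WT 43 (1.41, 0.038) and in DESeq2 (0.0066), Cd68 in DESeq2 (0.037) and Cd14 in limma without a variance trend (0.029). Cd163 was at 2.18, 2.12 and 3.08 CPM in WT and 1.65, 1.48 and 1.35 CPM in K146Q, below WT in all 3 libraries (-0.56, limma adjusted p = 0.094). Emr1 was at 5.83, 5.26 and 6.49 against 16.0, 10.9 and 10.2 CPM (0.99, 0.0074). Of 17 further macrophage genes tested 6 were higher and 0 lower in limma, with 10 at an unadjusted p under 0.05, all higher, led by Ctss (1.17), Laptm5 (0.92), a lysosomal protein of leukocytes, the costimulatory ligand Cd86 (0.77) and Fcgr1 (0.77). Without K146Q 60, 2 of 15 were higher, and Cd86 (limma adjusted p = 0.12) and Fcgr1 (0.12) were not. Cd86 was also lost without WT 2 (0.073), K146Q 62 (0.052) or K146Q 83 (0.066), and Fcgr1 without WT 1 (0.060), WT 43 (0.060) or K146Q 62 (0.077). Among the 17 is a gene, not called in limma, that passed the filter through K146Q libraries alone.

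Ptprc rose in the pituitary from 4.81, 4.18 and 5.07 CPM to 11.1, 10.9 and 6.72 CPM (0.93 ± 0.19, limma adjusted p = 0.016). None of the 4 T and NK members tested was called in limma, edgeR or DESeq2, with Cd4 (0.63) at an unadjusted p under 0.05, and the other 5 were below the filter, with at most 1.24 CPM in any library. The B cell members Cd79a and Cd79b had log2 fold changes of -0.28 and -0.67 (limma adjusted p = 0.65 and 0.20), and Cd79b was called lower without WT 1 (-1.05, 0.018). Further T cell, B and plasma cell, NK, neutrophil and mast cell genes were called in 0 of 4, 0 of 4, 0 of 1, 0 of 2 and 0 of 1 by limma, edgeR and DESeq2 alike, with 1, 0, 0, 2 and 0 at an unadjusted p under 0.05. Of the 6 dendritic cell genes tested, 0 were called in limma and DESeq2 and 1 in edgeR, with 2 at an unadjusted p under 0.05. The gene called in edgeR passed the filter through K146Q libraries alone and had to differ, so its call is no support. The count of 17 members rested in part on K146Q 60: without it 11 were called, and Ptprc (limma adjusted p = 0.080), Itgam (0.13), Fcgr3 (0.062), Fcer1g (0.069), C1qb (0.074) and Lyz2 (0.066) were lost, while the 4 class II members and 6 of the 17 myeloid members were still called. Itgam was also lost without each of WT 1 (0.070), WT 2 (0.073), WT 43 (0.0502) and K146Q 62 (0.13). Lyz2 was lost without WT 1 (0.072), WT 2 (0.087) and K146Q 62 (0.066), Ptprc without WT 2 (0.056) and K146Q 62 (0.072), and C1qb without K146Q 62 (0.060).

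Among markers of other cells in the pituitary, hormone cell genes also moved. The 6 hormone cell markers summed to 129783 to 252579 CPM in WT and 88709 to 99899 CPM in K146Q, with Prl lower (-1.65) and Tshb higher (4.03). Gh was not called in limma (-0.97, adjusted p = 0.074) but was lower in edgeR (-1.04, 0.025) and DESeq2 (-1.04, 0.035). Pomc was not called in the main fit (-0.23, limma adjusted p = 0.59) but was lower with quantile normalization (-0.87, 0.025). Endothelial markers summed to 209.7 to 228 CPM in WT and 245 to 247 CPM in K146Q, with 1 of 4 called (Pecam1, 0.45). Pecam1 was lost without K146Q 60 (limma adjusted p = 0.063). Of 7 microglia markers, several of which other macrophages share, Cx3cr1 (0.87) and Tmem119 (0.81) rose, the latter lost without WT 1 (limma adjusted p = 0.063), WT 2 (0.054) or K146Q 60 (0.073), and the sums of the 7 were 81.3 to 90.1 CPM in WT and 92.8 to 121 CPM in K146Q. Hypothalamus and neuron markers summed to 490.1 to 552 CPM in WT and 748 to 816 CPM in K146Q, with Syt1 and Snap25 called. The call of Snap25 was lost without WT 2 (limma adjusted p = 0.094), WT 43 (0.11), K146Q 60 (0.16), K146Q 62 (0.16) or K146Q 83 (0.10). The part of these markers of other cells in the result was not tested.

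In the hypothalamus no member was called. Cd74 was at 5.73, 3.01 and 3.54 CPM in WT and 5.61, 5.20 and 3.50 CPM in K146Q, and H2-Aa at 1.25, 1.5 and 1.16 against 2.35, 1.65 and 0.861 CPM. Csf1r, a microglial gene here, was at 62.3, 66.7 and 64.0 against 67.6, 73.5 and 65.0 CPM (0.09 ± 0.06). The genotypes overlapped in each of these genes. The lowest unadjusted p among the members was that of H2-D1, at 45.5, 49.5 and 50.9 CPM in WT and 56.7, 55.1 and 50.4 CPM in K146Q (0.15 ± 0.06, limma adjusted p = 0.998). At an unadjusted p under 0.05, limma had 1 of the 37 members and 645 of 15761 genes (4.09%), and edgeR and DESeq2 called 0 members and 0 and 9 genes. There were 9 members below the filter, among them Cd3g, which was at 0 reads in all 6 libraries, where 3 reads would be 0.150 to 0.181 CPM. The 10 lists of further genes held 0 called genes in limma and edgeR. The microglia markers summed to 116 to 124 CPM in WT and 121 to 133 CPM in K146Q.

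The levels themselves also varied with tissue. Per kilobase of merged exon, the WT thyroid had 365 CPM of B2m, 250 CPM of Cd74, 237 CPM of H2-D1 and 205 CPM of H2-K1, the 4 highest members in that tissue. In the WT pituitary B2m had 333 CPM per kilobase and H2-D1, Cd74 and H2-K1 between 79.2 and 97.2. In the WT hypothalamus B2m had 51.1 CPM per kilobase and was followed by C1qa at 26.6 and C1qb at 24.3. There the class II genes were low, with Cd74 at 3.01 to 5.73 CPM over the 6 libraries.

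Whether the effect of genotype differed between tissues was tested in a fit over all 18 libraries, for 45 members and 17140 genes. The 3 contrasts share libraries and are not independent of one another. The effect was larger in the thyroid than in the hypothalamus for 29 members, against 15.6% of all genes, and smaller for 0, against 15.2%. It was larger in the pituitary than in the hypothalamus for 5 members (2.29% of all genes) and smaller for 0 (0.945%). It was larger in the thyroid than in the pituitary for 12 members (16.4%) and smaller for 0 (17.4%). At an unadjusted p under 0.05 the effect was smaller for 2, 2 and 0 members in these contrasts, and edgeR also called 0 smaller. The 5 members of the contrast of pituitary with hypothalamus were the class II chains H2-Eb1 (difference in log2 fold change 1.37 ± 0.27, limma adjusted p = 0.0084), H2-Aa (1.2) and H2-Ab1 (1.11), with Aif1 (1.35) and Csf1r (0.88). That count was 9 with library number as a block, 3 without the libraries numbered 1 and 1 without those numbered 62. Of the 12 members that differed between thyroid and pituitary, 6 were of class I. Psmb8 led (1.49 ± 0.17, limma adjusted p = 4.9e-06), followed by Psmb9 (1.23), Nlrc5 (1.0), H2-D1 (0.99), B2m (0.82) and H2-K1 (0.53). Isg15 (1.49), Irf7 (1.22) and Ciita (0.84) were among the others. For the class II chains the thyroid minus pituitary differences were 0.04 ± 0.31 for H2-Aa, 0.04 ± 0.26 for H2-Ab1, 0.08 ± 0.27 for H2-Eb1 and 0.26 ± 0.30 for Cd74. None of these was called, which does not show that the effects were equal. Csf1r had 0.04 ± 0.16.

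The MHC between H2-K1 and H2-D1 holds 9 of the members, in a stretch of chromosome 17 of 1.27 Mb (chr17:33996017-35267499, GRCm38) with 85 protein-coding genes in GENCODE M21. Their neighbours give a local background. In the thyroid the 9 members were all higher, and of the 61 other genes tested 22 were higher (36.1%) and 3 lower, with a median log2 fold change of 0.19. H2-Oa, H2-DMb1 and H2-DMb2 were among those 22. In the pituitary 5 of the 9 members were higher (H2-K1, H2-Ab1, H2-Aa, H2-Eb1 and Aif1), and so were 3 of the 57 other genes (5.26%), with a median of -0.04. The 3 were Lst1 (0.87), H2-Eb2 (0.73) and Neu1 (0.35), named after their values were seen. Psmb9, Tap1 and Psmb8 lie side by side between H2-K1 and H2-Ab1 and were not called in the pituitary, where H2-Ab1 was. In the hypothalamus 0 of 9 members and 0 of 52 others were called in limma.

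**Figure D4:**
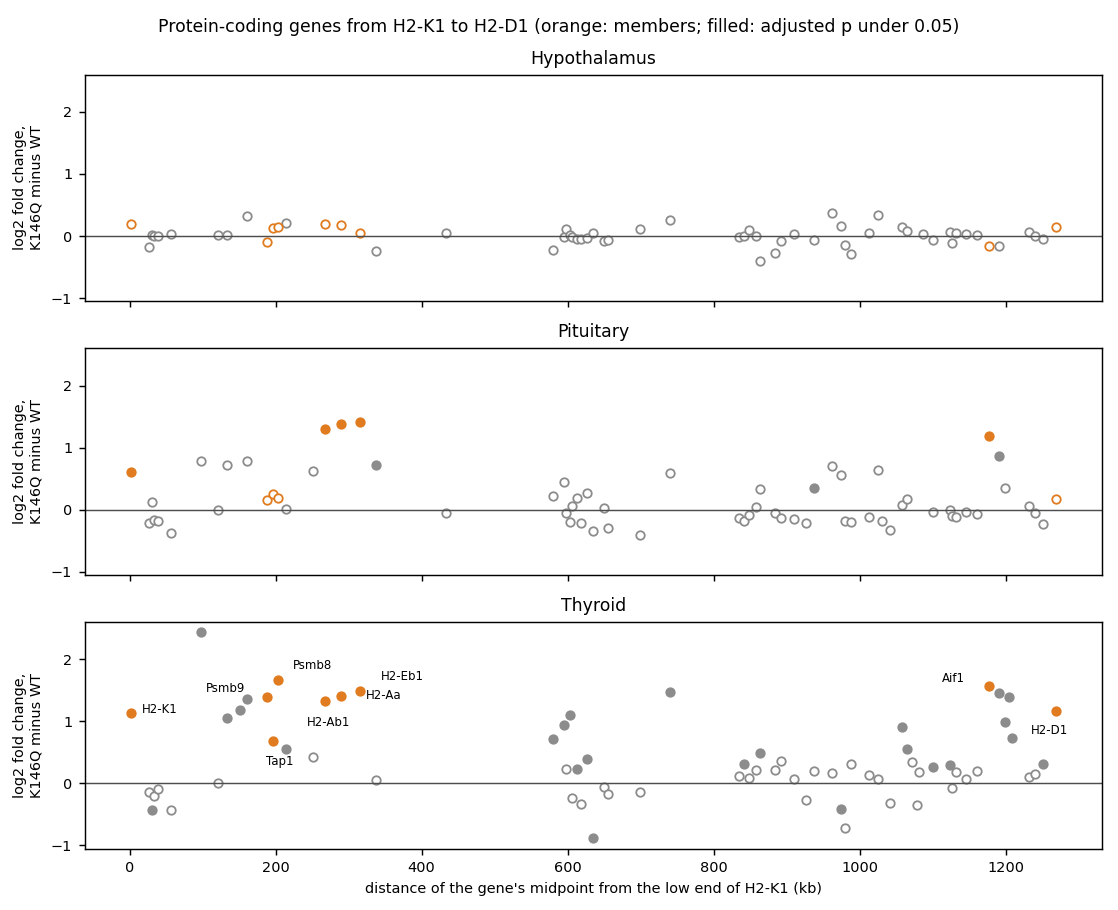
Log2 fold change (K146Q minus WT, vertical axis) of the protein-coding genes tested between H2-K1 and H2-D1 against distance from the low end of H2-K1 in kb, for each tissue, with members in orange and genes at an adjusted p under 0.05 filled. The 9 members are filled in the thyroid, 5 in the pituitary and none in the hypothalamus. Of the other genes, 22 of 61 are higher and 3 lower in the thyroid. In the pituitary 3 of 57 others are higher and 0 lower, and in the hypothalamus 0 of 52 are called.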

How the data were processed

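Total RNA of 18 libraries (3 per genotype in each of 3 tissues) was sequenced on the Illumina HiSeq system. Per the submitters' processing notes, reads were converted with bcl2fastq 2.17 and the notes also name Bowtie2 2.1.0, RSEM 1.2.15 and genome build mm10. The authors deposited normalized CPM, a signal scaled by library size and a normalization factor jointly over all 18 libraries. Each value is a whole number of reads (tolerance 0.01 read) for 100% of genes in 16 libraries and 99.9958% in the others, so reads were recovered for count models. The deposited tables also hold the authors' own comparison, its log2 fold changes and log2 mean levels, likelihood ratio scores and p-values, which were not used. Strand of counting is not given in the sources used here, so overlapping antisense genes cannot be told apart.

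Genes at 0.5 CPM or more in at least 3 of a tissue's 6 libraries were tested with limma 3.58.1 (R 4.3.3, variance trend) on log2(CPM + 0.5), with Benjamini-Hochberg adjustment over all genes tested and a threshold of 0.05. Fold changes are on that scale and understate changes of low genes. Differences between tissues were tested in 1 limma fit of 6 group means over genes passing in at least 3 of 18 libraries. Alternatives were pseudocounts of 0.1 and 1, no filter, 1 CPM in every library, median-of-ratios, quantile and trimmed totals, no trend, edgeR 4.0.16, DESeq2 1.42.0, a block for library number and leaving out each library. An exact permutation test of 3 against 3 cannot go below 0.1, so p-values come from the fits across genes. Those fits were also run on simulated counts with the same dispersion for every gene and no outlying library. That setting is simpler than these libraries, so it does not bear out the p-values given here. The labels name no batch and do not say that the libraries of a group are separate mice, so p-values measure the spread between libraries.

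The 47 members, the lists of further genes and the marker lists were chosen with earlier results of these data known. Some items of the lists are not reported here and are left out of their counts and sums. Members may all be named, and from each further list at most 4 called genes per tissue with the largest change. Coordinates and exon lengths are from GENCODE M21 (GRCm38) and upstream sequences from RefSeq (GRCm38.p6), which held 33 of the 46 members.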

Additional observations from a re-analysis of the deposited data

Results flagged for a closer look

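The effect of genotype (log2 fold change, K146Q minus WT) passed the limma test of a difference between tissues for the members below, and each value is the difference of the effects. The contrasts share libraries.

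For thyroid minus hypothalamus, the class I differences were Psmb8 (1.53), Psmb9 (1.49), Nlrc5 (1.2), B2m (1.12), H2-D1 (1.02), H2-K1 (0.95) and Tap1 (0.54). Those of class II were H2-Eb1 (1.45), Cd74 (1.35), H2-Aa (1.24), Ciita (1.23) and H2-Ab1 (1.15). Myeloid members differed by Aif1 (1.73), Fcer1g (1.52), C1qb (1.51), C1qa (1.45), C1qc (1.30), Tyrobp (1.30), Trem2 (1.27), Cd68 (1.25), Itgam (1.21), Itgax (1.13), Fcgr3 (1.11) and Csf1r (0.92), Ptprc by 0.72, and the interferon members were Ifit1 (1.33), Irf7 (1.27), Isg15 (1.24) and Ifit3 (0.82).

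For pituitary minus hypothalamus, the class II differences were H2-Eb1 (1.37), H2-Aa (1.2) and H2-Ab1 (1.11), and the myeloid ones Aif1 (1.35) and Csf1r (0.88).

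For thyroid minus pituitary, the class I differences were Psmb8 (1.49), Psmb9 (1.23), Nlrc5 (1.0), H2-D1 (0.99), B2m (0.82) and H2-K1 (0.53), and the interferon ones Isg15 (1.49) and Irf7 (1.22). The myeloid differences were Fcer1g (0.79), Itgam (0.79) and C1qb (0.72), and Ciita differed by 0.84. In every one of these the effect was larger in the tissue named first.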

How the results depend on the processing

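In the hypothalamus 0 members were called under every alternative, and all genes gave 9 calls with DESeq2 and 0 to 6 with a library left out. Pituitary members called were 16 to 19 under other settings and 11 to 21 with a library left out (11 without K146Q 60), where all genes fell from 1537 to between 625 and 1345, with 625 without K146Q 60 and 752 without K146Q 62. Thyroid members called were 30 to 32 under other settings and 29 to 38 with a library left out (38 without WT 2), and all genes fell from 5739 to between 3602 and 5106 (3602 without K146Q 62). With the 10 highest genes left out of the totals, calls over all genes were 835 higher and 878 lower in the pituitary (991 and 546 otherwise) and 2494 higher and 3610 lower in the thyroid (2992 and 2747), and the medians over all genes were -0.063 and -0.117; thyroid members were then 31 higher and 1 lower, Cd163. Members' fold changes kept their side of the threshold in 392 of 397 values under other settings in the pituitary and 431 of 433 in the thyroid, and in 217 of 240 and 240 of 264 with a library left out, and no called member changed sign.

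For pituitary minus hypothalamus the 5 members became 9 with a block for library number, 2 with edgeR and 1 to 7 with the libraries of a number left out; for thyroid minus hypothalamus the 29 became 24 to 30, and 30 with the block; for thyroid minus pituitary the 12 became 8 to 13, and 15 with the block. The labels do not say whether a number marks a mouse. The correlation of same-numbered libraries' deviations from their group means, between tissues, was over 0.1 in 3 of 18 pairs over all genes (-0.027 to 0.174, and -0.161 to 0.445 over 45 members), and 21 of 36 libraries matched across a pair of tissues correlated best with their own number, 10 of 12 between pituitary and thyroid. The counts were 6 of 12 between hypothalamus and pituitary and 5 of 12 between hypothalamus and thyroid. Each library could match any of the 3 libraries of its genotype in the other tissue. Whether the numbers pair the libraries is therefore undecided. No paired analysis was possible within a tissue because the genotypes share no library number. Members under about 1 CPM, most of the T and B cell genes, rest on few reads, and their fold changes are the least certain.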

Other observations

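Spib, a transcription factor of B cells and plasmacytoid dendritic cells, was at 3.28, 2.02 and 1.62 CPM in WT and 38.2, 30.9 and 47.1 CPM in K146Q (log2 fold change 3.83 ± 0.24, limma adjusted p = 7.4e-05), while Cd79a and Ms4a1 stayed below 0.5 CPM in the thyroid. Among 4 lymph node stroma markers tested, Fcer2a, the low-affinity IgE receptor, was at 3.73, 1.96 and 3.07 against 12, 12.9 and 17.4 CPM (2.12), and Madcam1, a vascular adhesion molecule, at 0, 0.253 and 0 against 2.68, 2.17 and 2.05 CPM. Madcam1 passed the filter through K146Q libraries alone and had to differ, so no fold change is given. Cxcl13, a B cell chemokine, went the other way, at 29.4, 40.6 and 27.1 against 4.16, 3.17 and 4.63 CPM (-2.86). Glycam1 was at 0 in all 6 libraries, and Ccl21a was at 11.5 CPM in WT 2 and at most 0.793 CPM elsewhere. The sum of the 6 markers was 32.1 to 56.6 CPM in WT and 19.5 to 26.0 CPM in K146Q.

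Mast cell genes rose in 3 of 5 tested in the thyroid: the proteases Mcpt4 (1.81), Tpsb2 (1.40) and Cpa3 (1.31), the last of which was lost without WT 2 (limma adjusted p = 0.089), WT 43 (0.082), K146Q 60 (0.10) or K146Q 83 (0.10). Of 3 neutrophil genes, the growth factor receptor Csf3r rose (0.93), while Mpo, myeloperoxidase, passed the filter through WT libraries alone and was below it without any 1 of them. Of 7 microglia markers Cx3cr1 (1.55), Fcrls (1.39), Tmem119 (1.19) and Olfml3 (0.44) rose and Sall1 fell (-0.60), where Olfml3 was called without WT 43 but lost without any of the other 5 libraries (limma adjusted p = 0.053 to 0.087). The sum of the 7 was 399.8 to 431 CPM in WT and 333 to 382 CPM in K146Q.

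In the pituitary, Casr, the calcium-sensing receptor, was at 11.6, 11.3 and 9.23 CPM in WT and 103, 64.5 and 46.4 CPM in K146Q (2.61, limma adjusted p = 0.00023), in the same order of K146Q libraries (60, 62, 83) as Cd74. Its fellow parathyroid marker Pth was at 1.65, 1.72 and 1.88 against 1.44, 1.23 and 1.66 CPM.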
